A study of Mus musculus with 8 samples.

Results

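Stathmin, microtubule-associated protein, tubulin and growth-cone genes, 10 in all, with which young neurons build and steer their processes, were followed in the embryonic lateral ganglionic eminence (LGE), the germinal zone and mantle of the ventral forebrain from which striatal projection neurons arise. They were chosen by symbol, as the stathmins Stmn1, Stmn2, Stmn3 and Stmn4, the microtubule-associated protein genes Map2, Mapt, Map1b and Dcx, the tubulin gene Tubb3 and the growth-cone gene Gap43, and all 10 of 10 were among the 16913 genes that the authors tabulated. LGE tissue had been dissected at embryonic day 14.5 from Meis2-CKO embryos (Dlx5/6-Cre;Meis2F/F, 4 samples) and from littermate controls (Dlx5/6-Cre;Meis2F/+, 4 samples), with C57BL/6J and CD1 mixed in the strain background. Both groups carried the Dlx5/6-Cre transgene, and the control had 1 floxed Meis2 allele, so it was not a wild type. Recombination was limited to cells of the Dlx5/6 lineage, and other cells of the dissected tissue kept Meis2. Values below are the authors' mean signal per genotype and their p-values and log2 fold changes, the last with Meis2-CKO over control. The header of the deposited table names no unit for the signal. No spread between embryos is attached to the means, the sequencing depth is unknown, and the labels do not say whether each sample came from 1 embryo, so the p-values may measure technical spread only.

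Microtubules are polymers of alpha- and beta-tubulin that lengthen and shorten at their ends, and a new neuron extends its leading process and axon by controlling where they are stable. Stathmins bind free tubulin dimers and favour disassembly; Stmn1 is cytosolic and abundant in dividing as well as neural cells, while Stmn2 (SCG10), Stmn3 (SCLIP) and Stmn4 (RB3) are largely neuronal and are anchored to Golgi and vesicle membranes. The structural proteins MAP2, tau (Mapt) and MAP1B and the migrating-neuron protein doublecortin (Dcx) bind the polymer and stabilise or bundle it. Tubb3 encodes the neuron-enriched beta-tubulin class III, and GAP-43 is a membrane phosphoprotein of growing axon tips.

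None of the 10 genes passed an adjusted p of 0.05 between Meis2-CKO and control per the authors' deposited table, where 0.78% of all genes did (132 genes, and 51 when only genes of at least 300 nt of exon were adjusted). By their values, 2 ranges of fold change can be described. Gap43, Stmn4, Mapt, Stmn2 and Stmn3 had means that were 1.19- to 1.35-fold lower in Meis2-CKO, each with an unadjusted p under 0.05 per the authors' deposited table, while Stmn1, Map1b, Dcx and Map2 lay within 0.07 of 0 on the log2 scale. Tubb3 stood between them. Which tool produced these p-values was not given in the sources used here. Lower means with an unadjusted p under 0.05 made up 1.34% of all genes per the authors' deposited table and 1.98% of the 2069 genes with a mean of at least 50 in either genotype, a level that all 10 reached. Higher means with such a p made up 1.88% of those 2069 genes, and none of the 10 was among them. Genes of that level that passed the adjusted p made up 0.677%. The 10 were chosen with earlier results of these data known, so the share of 5 in 10 describes them and is no test.

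**Figure D1:**
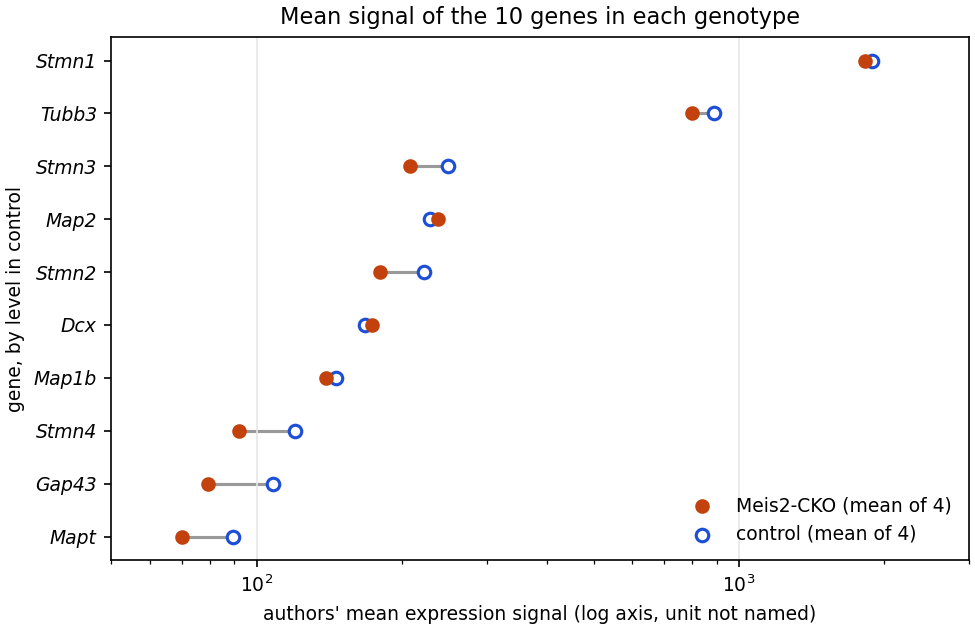
Authors' mean signal of each gene in Meis2-CKO (filled orange) and control (open blue) on a logarithmic horizontal axis, genes ordered by their control level; the means carry no error bars because no spread between samples is attached to them. Meis2-CKO lies to the left of control for 8 genes and to the right for Map2 and Dcx, and the gap is widest for Gap43.

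All 4 stathmins had lower means in Meis2-CKO, Stmn1 by the smallest fold. Stmn1 had an authors' mean of 1828 in Meis2-CKO and 1888 in control, the highest level of the 10 genes, and ranked 18th in Meis2-CKO and 17th in control among all genes tabulated. Its log2 fold change was -0.03, with p = 0.724 per the authors' deposited table. A further gene annotated as a stathmin 1 pseudogene, Gm11223, was listed at 45.1 in Meis2-CKO and 38.9 in control per the authors' deposited table, and the reads of such copies and of Stmn1 may have been divided between them by the counting.

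Of the 3 neuronal stathmins, Stmn3 stood at 208 in Meis2-CKO and 249 in control (log2 fold change -0.25, p = 0.0242 and adjusted p = 1.0 per the authors' deposited table). Stmn2, whose product SCG10 is concentrated in growth cones, stood at 180 in Meis2-CKO and 223 in control (log2 fold change -0.29, p = 0.0344 per the authors' deposited table). Stmn4 was the least abundant stathmin, at 91.9 in Meis2-CKO and 120 in control. It had the smallest p of the 10 genes (log2 fold change -0.37, p = 0.0024 and adjusted p = 0.26 per the authors' deposited table). Thus the order of size within the family was Stmn4, Stmn2, Stmn3 and Stmn1, the reverse of their order of level. Summed, Stmn2, Stmn3 and Stmn4 came to 481 in Meis2-CKO and 592 in control, a log2 ratio of -0.30. Set against Stmn1, that sum was 0.263 of its signal in Meis2-CKO and 0.313 in control. The difference between Stmn1 and the neuronal members was not tested, since only genotype means were used.

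Among the proteins that bind the microtubule lattice, Mapt differed in size from the others. Mapt, which encodes the axonal protein tau, had an authors' mean of 70.0 in Meis2-CKO and 89.2 in control (log2 fold change -0.34, p = 0.0309 and adjusted p = 1.0 per the authors' deposited table). Map2, its dendritic and somatic relative, had 238 in Meis2-CKO and 229 in control, with a log2 fold change of 0.07 and p = 0.531 per the authors' deposited table. The signal of Mapt was therefore 0.295 of that of Map2 in Meis2-CKO and 0.389 in control, a contrast between 2 genes that was not tested. Map1b, an early axonal protein, stood at 139 in Meis2-CKO and 146 in control (log2 fold change -0.06, p = 0.595 per the authors' deposited table). Dcx, needed for the migration of young neurons, stood at 174 in Meis2-CKO and 168 in control (log2 fold change 0.06, p = 0.573 per the authors' deposited table).

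Dcx is the X-linked gene of the set, and genes linked to sex differed in mean as well. By the authors' deposited table, Xist, transcribed from the inactive X chromosome, stood at 256 in Meis2-CKO and 78.0 in control (log2 fold change 1.74, p = 0.0136 and adjusted p = 0.985). The Y-linked gene Ddx3y had a lower mean, at 4.03 in Meis2-CKO and 14.1 in control (adjusted p = 0.000279 per the authors' deposited table). So did Eif2s3y, at 14.0 in Meis2-CKO and 50.5 in control. The Y-linked genes Kdm5d (4.09 in Meis2-CKO and 13.05 in control) and Uty (2.36 in Meis2-CKO and 6.6 in control) were lower too. No sex is given for the embryos, and the part of this difference in the level of Dcx or of the 9 autosomal genes was not tested.

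Gap43, the growth-cone gene, had the largest fold change of the 10, at 79.2 in Meis2-CKO and 108 in control (log2 fold change -0.44, p = 0.00365 and adjusted p = 0.355 per the authors' deposited table). Relative to Dcx, another gene of young neurons, its signal was 0.456 in Meis2-CKO and 0.644 in control. That contrast was not tested, and bulk tissue does not show whether the same cells expressed both genes. Tubb3 stood at 801 in Meis2-CKO and 887 in control, next below Stmn1 in the set (log2 fold change -0.14, p = 0.161 per the authors' deposited table). Because the other beta-tubulin genes have similar coding sequences, the reads of Tubb3 may have been shared with them. In absolute terms the deficit of Tubb3 was the largest of the set, a difference (Meis2-CKO minus control) of -86.6 signal units, where that of Gap43 was -29.0.

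**Figure D2:**
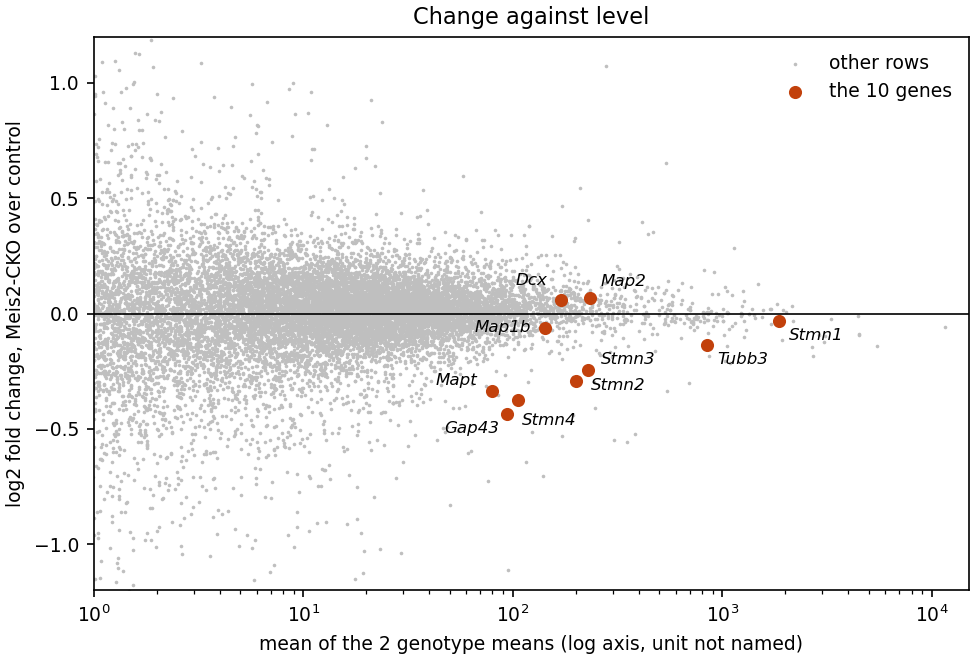
Log2 fold change (Meis2-CKO over control) of each gene against its mean level on a logarithmic axis, with the 10 genes in orange and the other genes in grey; 13461 genes fall within the axes and 3452, with a mean under 1 or a larger fold change, are not drawn. Gap43, Stmn4, Mapt, Stmn2 and Stmn3 lie along the lower edge of genes of their level, whereas Map2 and Dcx lie just above 0.

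Few genes of this abundance had a log2 fold change as low as those of Gap43, Stmn4, Mapt, Stmn2 and Stmn3. The ranking used here runs from the lowest value, so rises of the same size are not counted in it. Among the 2069 genes with a mean of at least 50, Gap43 lay within the lowest 1.21% by log2 fold change, Stmn4 within 1.5%, Mapt within 1.64%, Stmn2 within 1.98% and Stmn3 within 2.32%. Tubb3 lay at 6.38%, Map1b at 17.0% and Stmn1 at 26.6% of the same ranking. Dcx and Map2 lay above its middle, at 70.2% and 71.7%. Of the 10 genes 8 had a log2 fold change below 0, against 40.7% of the 2069 genes and 46.7% of all genes. The median of the 10 was -0.19, and that of all genes was 0.01. Summed over the 10, the signal was 3809 in Meis2-CKO and 4108 in control. Stmn1 alone supplied 48.0% of that sum in Meis2-CKO and 46.0% in control, so the sum was dominated by it; without Stmn1 the sums were 1981 in Meis2-CKO and 2220 in control, a log2 ratio of -0.16.

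The 10 genes lie on 10 different chromosomes, so no pair of them shares a locus, and none lies beside another. In GRCm38 (GENCODE M21) the genes with the 2 smallest p-values are Stmn4 (ENSMUSG00000022044, chromosome 14, 66344296 to 66361680, plus strand) and Gap43 (ENSMUSG00000047261, chromosome 16, 42248442 to 42340651, minus strand). Stmn3 (chromosome 2, 181306459 to 181314500) is on the chromosome that also carries Meis2 (115863064 to 116065839). Annotated transcripts of the set numbered from 1 for Stmn3 to 24 for Map2. The deposited signal is 1 value per gene, so isoforms, such as those of Map2 and Mapt, cannot be told apart in it. How that value was formed from the transcripts is not stated in the sources used here. Exon lengths ran from 1136 nt for Stmn3 to 16449 nt for Map2, with 1523 nt for Gap43 and 12647 nt for Dcx. The 5 genes with a lower mean and an unadjusted p under 0.05 included both short (Stmn3, Gap43, Stmn4) and long ones (Mapt, 7531 nt, and Stmn2, 5602 nt). Map2 overlaps an annotated antisense gene, Gm10558, over 124 nt of exon, and whether the counting used strand is not stated in the sources used here. Tubb3 lies inside the span of Gm20388, a long annotated gene with no exon base in common, which had an authors' mean of 6.79 in Meis2-CKO and 4.99 in control.

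Promoter windows of RefSeq (GRCm38.p6, 250 bases before to 50 after the transcript start) were held for 5 of the 10 genes: Stmn3, Tubb3, Map2, Map1b and Dcx, the last with 2 starts. The 3 with the smallest p-values among these 5 are shown. They are Stmn3 with an unadjusted p under 0.05, Tubb3 in between and Map2 with a log2 fold change near 0. Of the genes with a lower mean and an unadjusted p under 0.05, Stmn4, Gap43, Mapt and Stmn2 had no window. Capitals mark matches, on either strand, to TGACAG (the Meis core), TAATTA (a homeodomain core that Dlx factors bind), CAGCTG and CATATG (E-boxes), and CAGCACC and GGACAGC (the left and right arms of RE1, the element bound by the neuronal-gene repressor REST). The windows are chr2:181314451-181314750 on the minus strand for Stmn3, chr8:123411303-123411602 on the plus strand for Tubb3 and chr1:66175079-66175378 on the plus strand for Map2, each written 5′ to 3′ along its gene.
Stmn3: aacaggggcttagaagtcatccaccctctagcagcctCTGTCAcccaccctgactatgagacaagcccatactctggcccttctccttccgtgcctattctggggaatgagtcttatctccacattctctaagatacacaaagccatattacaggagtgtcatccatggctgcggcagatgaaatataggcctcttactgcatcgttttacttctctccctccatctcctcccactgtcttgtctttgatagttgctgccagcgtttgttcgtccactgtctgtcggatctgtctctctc
Tubb3: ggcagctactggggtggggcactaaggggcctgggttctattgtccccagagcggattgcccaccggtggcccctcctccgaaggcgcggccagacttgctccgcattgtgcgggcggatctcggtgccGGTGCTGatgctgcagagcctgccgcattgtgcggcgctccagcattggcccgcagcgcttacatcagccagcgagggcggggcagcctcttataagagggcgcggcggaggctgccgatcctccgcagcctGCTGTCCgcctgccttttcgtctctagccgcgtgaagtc
Map2: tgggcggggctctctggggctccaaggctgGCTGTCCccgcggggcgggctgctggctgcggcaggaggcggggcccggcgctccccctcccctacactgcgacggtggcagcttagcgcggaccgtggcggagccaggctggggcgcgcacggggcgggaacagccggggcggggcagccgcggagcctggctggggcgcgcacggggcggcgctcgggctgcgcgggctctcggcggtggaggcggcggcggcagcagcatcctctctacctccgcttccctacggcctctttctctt

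The window of Stmn3 held 1 match, the Meis core on the opposite strand beginning at position -213 from the start; 19.2% of all 32851 promoter windows of this length held that core. Tubb3 held the left RE1 arm at position -121 and the right arm at position 12, both on the opposite strand. The arms were searched separately, with no rule on their order or spacing, so no match here stands for a whole RE1. Map2 held the right arm at position -220, and Map1b, whose window is not printed, the left arm at position 24. No GENCODE M21 transcript of Map1b held the first bases after that RefSeq start, so this position rests on RefSeq alone. The left and right arms occurred in 7.14% and 6.56% of all windows. Neither E-box was in any of the 5 genes' windows, which is to be set against 16.3% of all windows for CAGCTG and 3.91% for CATATG. The homeodomain core was in both windows of Dcx, which overlap, and in 5.29% of all windows. Base composition differed widely among the 3 printed windows. Stmn3 had 49.7% G and C with 6 CpG dinucleotides, Tubb3 67.3% with 26 and Map2 77.7% with 37, where the median window had 52.7% G and C. These matches are letters in a window, and no measurement of binding was made here.

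The members' Gene Ontology terms, as the deposited table carries them, followed the family lines only in part. Tubulin binding was on Map2, Mapt and all 4 stathmins. All 4 stathmins held microtubule depolymerization, a term on 13 of 13844 annotated genes, and Stmn2, Stmn3 and Stmn4 held the Golgi apparatus term, which Stmn1 did not. The microtubule component term was on Dcx, Map1b, Map2, Mapt, Stmn1 and Tubb3. Growth cone was listed for Map1b, Mapt and Stmn2, though not for Gap43.

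The rest of the microtubule and growth-cone machinery gave no gene past the adjusted threshold. Of 14 listed tubulins 7 were on either side of 0, and their median log2 fold change was 0.02. Tuba1b, a widely expressed alpha-tubulin, stood at 1250 in Meis2-CKO and 1037 in control (log2 fold change 0.28, p = 0.0173 per the authors' deposited table). Tubb2a stood at 313 in Meis2-CKO and 453 in control (log2 fold change -0.52, p = 0.0447 per the authors' deposited table). That was a larger fold difference than that of Gap43 at a higher level, yet with a larger p. The 15 listed other microtubule-associated genes had a median of -0.01, with Dclk2, a doublecortin relative with a kinase domain, at 183 in Meis2-CKO and 155 in control (p = 0.0207) and Map6, which protects microtubules from cold, at 17.4 in Meis2-CKO and 24.3 in control (p = 0.0364), per the authors' deposited table. For 25 genes of plus ends, minus ends and severing the median was -0.01, and Camsap3, a minus-end protein, stood at 15.7 in Meis2-CKO and 21.2 in control, while the severing gene Fign stood at 7.49 in Meis2-CKO and 4.64 in control. The 20 tubulin chaperones and modifying enzymes had a median of -0.03, with the tyrosine ligase gene Ttl at 13.4 in Meis2-CKO and 15.7 in control and Agtpbp1, a deglutamylase gene, at 23.8 in Meis2-CKO and 27.0 in control.

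Other growth-cone genes had fold changes centred near 0. Of 24 listed genes of the growth cone and membrane cytoskeleton 14 lay below 0 and 10 above, with a median of -0.04. Basp1, a membrane protein related in function to GAP-43, stood at 291 in Meis2-CKO and 326 in control (log2 fold change -0.15, p = 0.209 per the authors' deposited table). Shtn1, which encodes the axon-outgrowth protein shootin, was the member of this list nearest the threshold and lay the other way, at 81.0 in Meis2-CKO and 60.2 in control (log2 fold change 0.44, adjusted p = 0.0667 per the authors' deposited table). The 16 axonal motor genes lay in a narrow range, 12 below 0 and 4 above with a median of -0.05; Kif5a stood at 33.6 and Kif5c at 74.8 in Meis2-CKO, against 37.8 and 80.3 in control. The 19 kinases and phosphatases that act on these proteins also had a median of -0.05, with Cdk5 at 32.8 in Meis2-CKO and 36.7 in control and the JNK gene Mapk10 at 27.6 in Meis2-CKO and 24.5 in control. REST and its corepressors, which hold neuronal genes such as Stmn2 silent outside neurons, had a median of 0.08, with 9 of 10 above 0. Hdac1 stood at 68.7 in Meis2-CKO and 59.6 in control, Ehmt2 at 145 in Meis2-CKO and 137 in control, and no unadjusted p of these 10 was under 0.05 per the authors' deposited table.

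**Figure D3:**
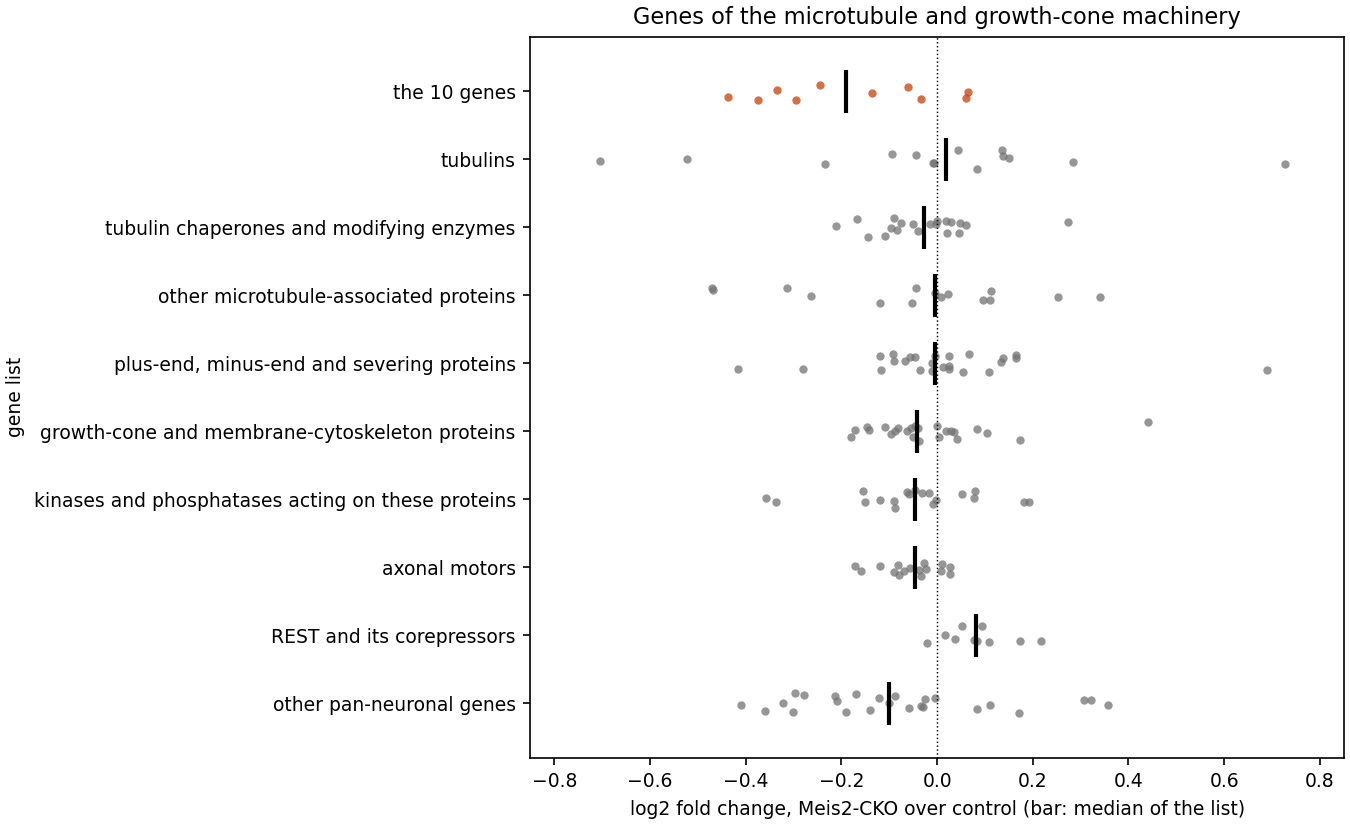
Log2 fold change (Meis2-CKO over control) of each gene of 10 lists, 1 point per gene with the list's median as a black bar and points spread vertically for legibility. The 10 genes have a median of -0.19, that of the other pan-neuronal genes is -0.10, and the medians of the other 8 lists lie between -0.05 and 0.08.

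The list nearest to the 10 genes was that of other pan-neuronal genes, with 19 of 25 below 0 and a median of -0.10. Ina, the gene of the neurofilament relative alpha-internexin, stood at 47.4 in Meis2-CKO and 63.5 in control (log2 fold change -0.41, adjusted p = 0.333 per the authors' deposited table). The other genes of this list with a lower mean and an unadjusted p under 0.05, named after their values were seen, were Nsg1 (175 in Meis2-CKO and 214 in control), Uchl1 (217 in Meis2-CKO and 269 in control) and the synaptic gene Snap25 (28.5 in Meis2-CKO and 37.0 in control), per the authors' deposited table. Sez6 lay the other way, at 80.8 in Meis2-CKO and 65.3 in control (p = 0.0101 per the authors' deposited table).

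Cell type markers differed beside these genes in both directions, and in bulk tissue fewer cells of a type and less RNA per cell cannot be told apart. Progenitor genes lay above 0 in 10 of 10 cases, with a summed signal of 1946 in Meis2-CKO and 1717 in control; Nes stood at 126 in Meis2-CKO and 104 in control and Sox2 at 142 in Meis2-CKO and 121 in control. Cycling-cell genes did so in 8 of 8 cases, with sums of 1264 in Meis2-CKO and 1095 in control and Pcna at 356 in Meis2-CKO and 290 in control. Cenpf, a kinetochore gene, stood at 33.6 in Meis2-CKO and 24.97 in control (log2 fold change 0.44, p = 0.0208 per the authors' deposited table). No gene of either list passed per the authors' deposited table. Striatal projection neuron genes had sums of 166 in Meis2-CKO and 321 in control, with 12 of 13 below 0. Past the adjusted threshold 7 were lower: Isl1, Ebf1, Tac1, Foxp1, Zfp503, Rarb and Bcl11b. Sp9, named after its values were seen, lay the other way, at 44.5 in Meis2-CKO and 34.3 in control. Its log2 fold change was 0.39, with p = 0.0173 per the authors' deposited table. Isl1 was 4.56-fold lower and Bcl11b 1.52-fold lower in Meis2-CKO per the authors' deposited table, both past the largest difference among the 10 genes. The GABAergic list was split, with 4 of 7 below 0 and, at an unadjusted p under 0.05, 3 genes higher and 2 lower. Dlx1 stood at 496 in Meis2-CKO and 393 in control, and Dlx5 at 92.1 in Meis2-CKO and 72.3 in control. The 2 lower ones, named after their values were seen, were Dlx6, at 29.9 in Meis2-CKO and 39.8 in control (log2 fold change -0.40, p = 0.0219 per the authors' deposited table), and the GABA-synthesis gene Gad2, at 75.4 in Meis2-CKO and 90.3 in control (log2 fold change -0.25, p = 0.0447 per the authors' deposited table). Meis2 itself stood at 140 in Meis2-CKO and 204 in control and fell by 0.53 in log2 units (adjusted p = 0.00195 per the authors' deposited table). The part of these shifts in the levels of the 10 genes was not tested.

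**Figure D4:**
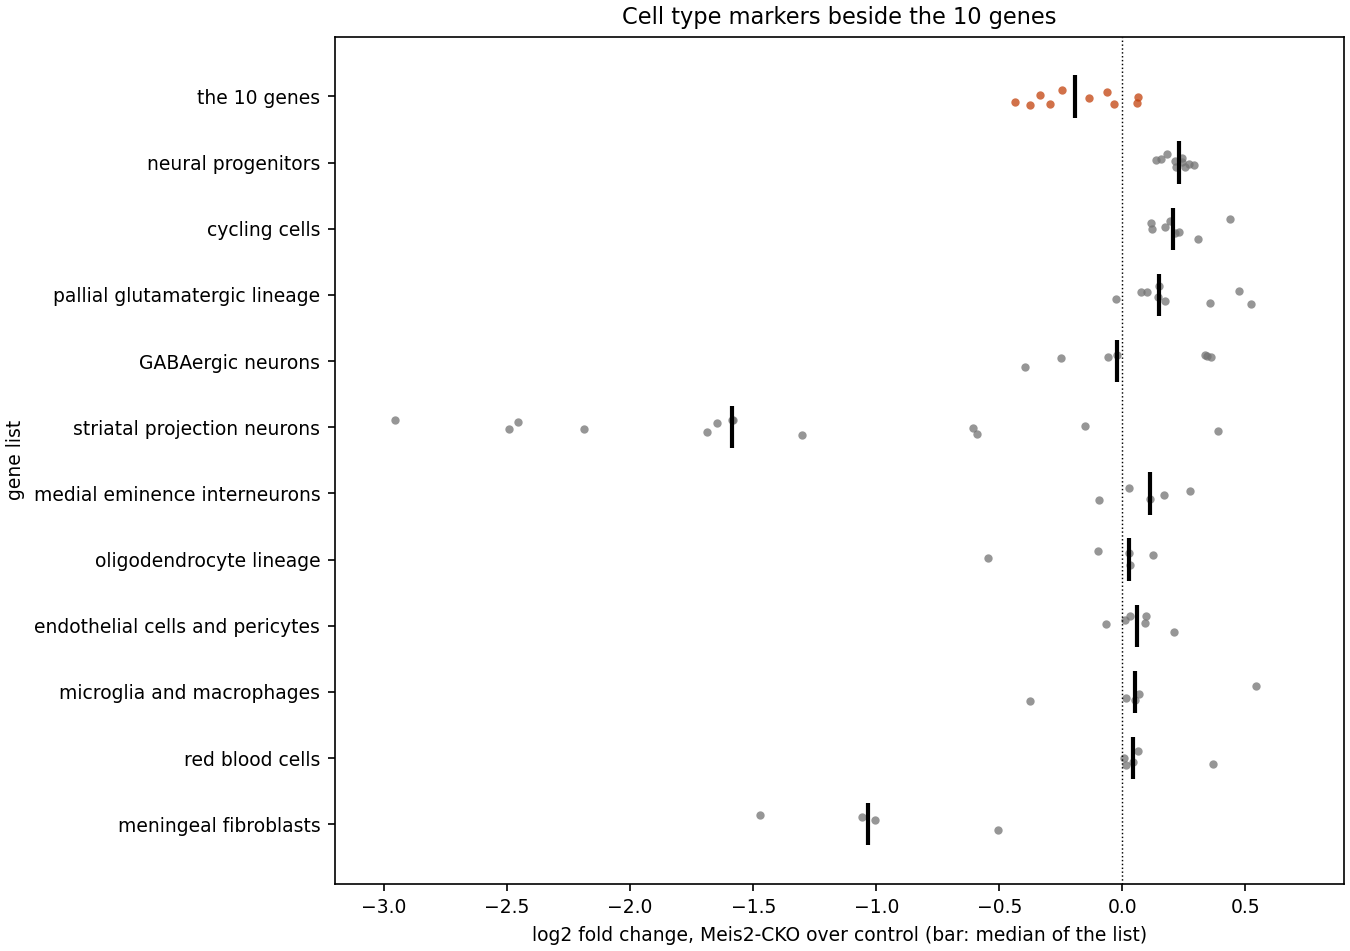
Log2 fold change (Meis2-CKO over control) of each marker gene of 11 cell type lists beside the 10 genes, 1 point per gene with the list's median as a black bar. Every progenitor and cycling-cell gene lies above 0, striatal projection neuron genes have a median of -1.59, and the 10 genes have a median of -0.19.

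No gene of the remaining cell type lists passed. Pallial glutamatergic genes had sums of 219 in Meis2-CKO and 192 in control, with 8 of 9 above 0 and a median log2 fold change of 0.15. Neurog2, a proneural factor of pallial progenitors, stood at 27.4 in Meis2-CKO and 19.2 in control (log2 fold change 0.52, p = 0.0155 per the authors' deposited table). Eomes, of pallial intermediate progenitors, stood at 18.2 in Meis2-CKO and 13.2 in control (log2 fold change 0.47, p = 0.0654 per the authors' deposited table). Medial eminence interneuron genes summed to 112 in Meis2-CKO and 109 in control (4 of 5 above 0; Lhx6 at 19.2 in Meis2-CKO and 17.2 in control, Lhx8 at 3.72 in Meis2-CKO and 3.08 in control). The sums were 56.6 in Meis2-CKO and 54.8 in control for endothelial and pericyte genes (5 of 6 above 0; Pecam1 at 7.5 in Meis2-CKO and 6.53 in control, Rgs5 at 12.7 in Meis2-CKO and 12.0 in control). Microglia and macrophage genes had sums of 33.2 in Meis2-CKO and 31.8 in control (4 of 5 above 0; Cx3cr1 at 5.49 in Meis2-CKO and 3.76 in control, Aif1 at 2.89 in Meis2-CKO and 3.82 in control). Oligodendrocyte lineage genes had 33.4 in Meis2-CKO and 32.4 in control (3 of 5 above 0; Olig2 at 21.2 in Meis2-CKO and 19.6 in control, Sox10 at 0.31 in Meis2-CKO and 0.515 in control). Red blood cell genes had 2709 in Meis2-CKO and 2695 in control (5 of 5 above 0; Hba-a2 at 19.4 in Meis2-CKO and 15.2 in control, Hbb-bt at 309 in Meis2-CKO and 298 in control), and their near-identical copies make single values uncertain. Meningeal fibroblast genes had sums of 1.45 in Meis2-CKO and 3.29 in control, with all 4 below 0 and Col1a2 at 0.802 in Meis2-CKO and 1.82 in control and Dcn at 0.09 in Meis2-CKO and 0.475 in control. Of these 4 genes, 3 had a mean under 1 in both genotypes. Their smallest unadjusted p was 0.207, for Col1a2, per the authors' deposited table.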

How the data were processed

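RNA-seq of 8 LGE samples was deposited as 1 table of 16913 genes. The submitters' processing notes name StringTie 1.3.1, HISAT2 2.1.0 and FastQC 0.11.5, with builds mm10 and GRCm38.p2, and give no roles. The expression signal is the authors' deposited mean over replicates of each genotype, per the file headers, in a unit they do not name; its columns summed to 543246 in Meis2-CKO and 547952 in control. The median control signal of protein-coding genes was 9.18 for the shortest and 14.2 for the longest of 5 exon-length bins, so values were read as scaled by length. The log2 fold change, the p-value and the adjusted p are deposited by the authors, per the file headers, and the adjusted p matched a Benjamini-Hochberg adjustment made here over all genes. Their median p was 0.76, and 80.2% exceeded 0.5. The table's 8 further columns of values per library have names that match no sample label, and they were not used, so no test was run on samples and no error is given.

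The members, the 10 pathway lists, the 11 cell type lists and the motifs were chosen with earlier results of these data known. Genes were matched by symbol; the text names all 10 members, Meis2, and from each list the genes past an adjusted p of 0.05 or, where none passed, the 2 with the smallest p; others were named after their values were seen. The promoters shown are the 3 with the smallest p among members that have a window. The comparison with genes of a mean of at least 50 was added after the data were seen. Exon lengths came from GENCODE M21 for 16861 genes. The adjustment code was tested on made-up p-values. The work used pandas 2.3.3, numpy 2.4.6, scipy 1.17.1, matplotlib 3.10.9 and Python 3.11.15.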

Additional observations from a re-analysis of the deposited data

How the results depend on the processing

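No member and no gene of the 10 pathway lists passed under the Benjamini-Yekutieli adjustment or at a fold change of at least 1.5. Both settings can only remove genes, and none had passed before them. None passed either with adjustment over genes of at least 300 nt of exon or over genes with a mean of at least 1. The adjusted p of Stmn4 ranged from 0.214 (genes with a mean of at least 1) to 1.0 (Benjamini-Yekutieli) and was 0.526 over genes of at least 300 nt. The count of genes passing in the whole table was 132, and 51 when only genes of at least 300 nt were adjusted. All 10 members kept the sign of their log2 fold change after centring on the median, scaling to equal column sums or a pseudocount of 1. These settings moved the values by less than the smallest of them, -0.03 for Stmn1, so the kept signs are no test. The log2 ratio of the summed members was -0.11, -0.10 with equal column sums and, added after the data were seen, -0.16 without Stmn1. No paired analysis was possible because the columns used carry genotype means and no replicate number; for the same reason no replicate was left out. Depth is unknown, so no detection limit is given.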
